A study of Homo sapiens with 6 samples.

Results

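The SRC family kinases are described here in KO52 cells, an acute myeloid leukaemia line that carries mutations in both copies of the transcription factor gene CEBPA. The 8 members were taken by name, namely SRC, LYN, FGR, FYN, LCK, YES1, BLK and their inhibitor CSK, and all 8 were found among the 60612 gene identifiers of the count tables. Every library came from KO52 cells of this genotype that had received a lentivirus with a doxycycline-inducible vector and had been sorted for GFP after doxycycline, so all 3 groups share the vector, the drug and the sort. EV cells carried the empty vector, dnCEBP cells expressed a dominant negative C/EBP peptide, and dnFOS cells expressed a dominant negative FOS peptide. These peptides pair with C/EBP or AP-1 family members and keep them off DNA, so neither group reports on a single factor. There were 2 libraries per group, and whether the 2 came from separate cultures is not given in the sources used here, so that p-values measure only the spread between these libraries. Only this 1 cell line was measured.

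SRC family kinases are non-receptor tyrosine kinases that sit at the inner face of the plasma membrane and pass signals from receptors that have no kinase domain of their own. Each carries an SH3 domain, an SH2 domain and a kinase domain, and a tyrosine near the carboxyl end that, when phosphorylated by CSK, folds the kinase into its closed form. SRC, YES1 and FYN are made in many tissues, LYN and FGR are prominent in myeloid cells, LCK is the kinase of the T cell receptor, and BLK belongs to B cells. RNA levels do not report on the phosphorylation that sets the activity of these proteins.

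Libraries held 9862994 to 27663179 counted reads, and the 2 dnFOS libraries were the shallowest. Of the markers fixed for cell types, the myeloid and progenitor list was lowest in dnCEBP. It summed to 869.1 to 935.9 CPM (read counts scaled to library size) in EV, 683 to 749 in dnCEBP and 867.4 to 882.5 in dnFOS. CEBPA, CD34 and CD33 were well detected, MPO ranged from 52.95 to 239.1 CPM over the libraries, and ELANE was absent or at most 9 reads. The T cell list summed to 139 to 146 CPM in EV, 173 to 175 in dnCEBP and 115 to 128 in dnFOS, nearly all of it from CD3D and TRBC2, while CD3E and CD3G reached at most 4 and 7 reads. The B cell list summed to 16.1 to 19.5 CPM in EV, 16.0 to 17.0 in dnCEBP and 11.3 to 14.3 in dnFOS, nearly all of it CD79B, with MS4A1 and PAX5 at 0 in every library.

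Promoter windows from RefSeq (GRCh38.p14) were at hand for 5 of the 8 members, FGR, FYN, LCK, YES1 and CSK, as 10 windows of 300 bases running from 250 bases before to 50 bases after an annotated start. Both strands were searched for the letters TGACTCA (AP-1), TGACGTCA (the related CRE), TTGCNNAA (C/EBP) and TGTGGT (RUNX). None of the 10 windows held the AP-1 or CRE letters, which occur in 4.95% and 1.85% of all 35116 windows. The C/EBP letters stood in 1 window and the RUNX letters in 3, against 10.5% and 13.1% of all windows. For each of 3 members 1 window follows, read 5′ to 3′ on the strand of the gene with matches to the searched letters in capitals. FGR and FYN have further windows, not shown, none of which held any of the searched letters. CSK is shown because it was lower in both dnFOS libraries, although its change there did not hold under all alternatives given below. The FGR window is shown because it is the only one of the 10 that held the RUNX letters more than once. The FYN window is shown because it alone of the 10 held the C/EBP letters, followed by the RUNX letters.
FGR, chr1:27626548-27626847, minus strand: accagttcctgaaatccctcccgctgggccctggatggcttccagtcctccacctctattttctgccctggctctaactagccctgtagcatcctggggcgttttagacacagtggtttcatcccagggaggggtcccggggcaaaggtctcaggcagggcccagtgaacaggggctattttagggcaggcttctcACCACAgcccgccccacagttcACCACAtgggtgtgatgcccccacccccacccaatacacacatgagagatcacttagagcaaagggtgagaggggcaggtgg
FYN, chr6:111759868-111760167, minus strand: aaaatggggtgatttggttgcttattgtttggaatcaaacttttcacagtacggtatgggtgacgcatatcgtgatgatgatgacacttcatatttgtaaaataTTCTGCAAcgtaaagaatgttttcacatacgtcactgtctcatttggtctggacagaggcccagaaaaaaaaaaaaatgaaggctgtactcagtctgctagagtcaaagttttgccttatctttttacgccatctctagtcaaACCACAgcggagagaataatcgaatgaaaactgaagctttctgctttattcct
CSK, chr15:74788294-74788593, plus strand: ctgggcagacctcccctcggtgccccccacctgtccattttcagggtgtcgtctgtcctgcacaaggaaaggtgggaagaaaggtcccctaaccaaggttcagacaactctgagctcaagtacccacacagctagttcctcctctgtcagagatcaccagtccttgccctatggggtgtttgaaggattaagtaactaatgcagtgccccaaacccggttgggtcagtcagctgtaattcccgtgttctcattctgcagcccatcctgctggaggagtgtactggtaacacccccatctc
In FGR the capitals are the RUNX letters as they read on the opposite strand, and the CSK window has no capitals because no searched letters were found in it. A match is a run of letters and not a bound site, and which of the annotated starts KO52 cells use was not measured.

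In the EV libraries the family was dominated by YES1 and LYN. Levels of different genes are compared here as RPKM (CPM divided by the gene length in kilobases), where the length is the union of all annotated exons. YES1 stood at 23.6 ± 0.2 RPKM (SD, n = 2) and LYN at 21.9 ± 0.8 RPKM, which placed them at percentiles 92.7 and 91.9 of 15222 genes. CSK followed at 14.5 ± 0.8 RPKM, at percentile 87.3. FYN at 1.75 ± 0.08 RPKM and FGR at 1.28 ± 0.02 RPKM were in the lower part of the range of tested genes, and SRC, at 0.148 ± 0.020 RPKM, was near its bottom at percentile 5.34. LCK at 0.122 ± 0.076 RPKM did not differ from SRC beyond the spread of its libraries. All other neighbours in this order were separate in the EV libraries. BLK had 0 reads in all 6 libraries, which allows at most 3 reads per library, or 0.111 to 0.290 CPM, for counting error only.

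The order of YES1 and LYN depended on which length was used. With exon unions YES1 was above LYN in 6 of 6 libraries, and with the median length of the protein-coding transcripts it was above LYN in 0 of 6. The exon unions are 5100 bases for YES1 and 6185 bases for LYN, whereas their median coding transcripts are 4554 and 2297 bases. FYN also moved with this choice, from 3.59% to 14.6% of family RNA in EV, since its median annotated coding transcript has 864 bases. CSK has an exon union of 4570 bases and a median coding transcript of 1239 bases. Its place in the order next to YES1 and LYN therefore also depends on the length used. Comparisons of the same gene between groups do not use a length.

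**Figure D1:**
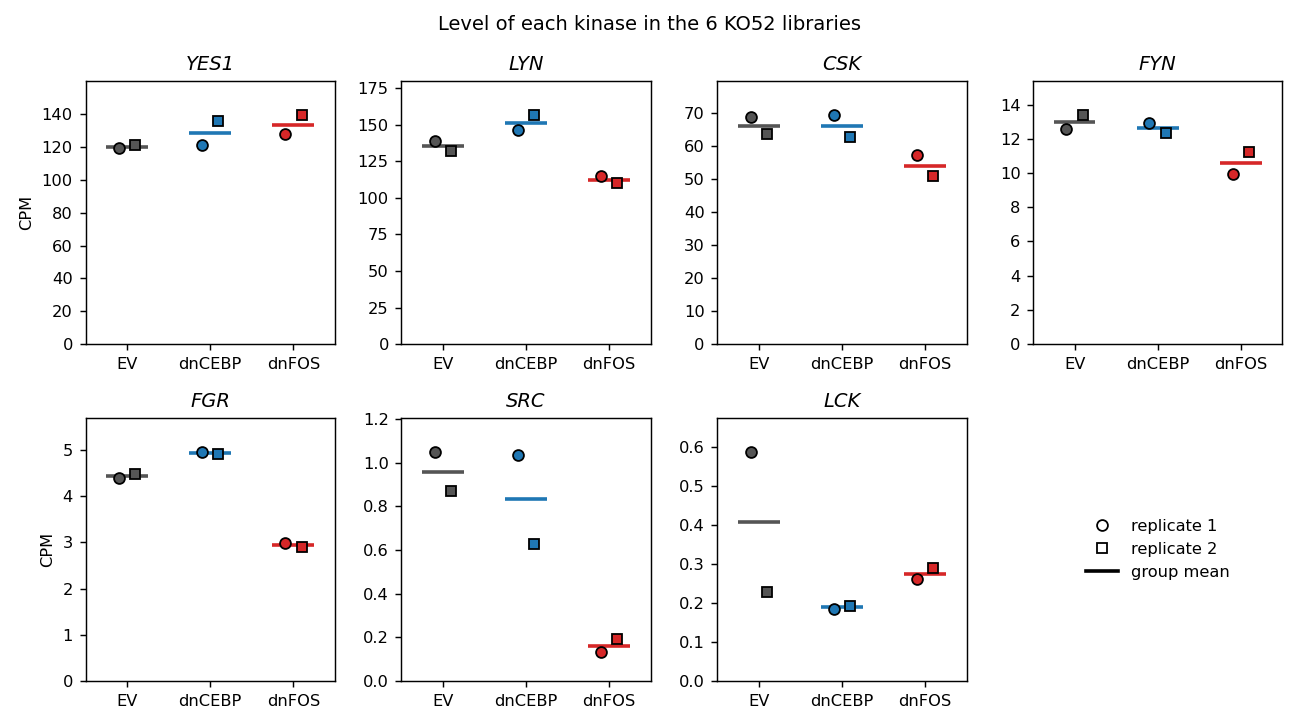
Level of each detected kinase in CPM (vertical axes, from 0, a separate scale for each gene) in the 2 EV, 2 dnCEBP and 2 dnFOS libraries; circles and squares are replicates 1 and 2 and lines are group means. SRC, FGR, LYN, CSK and FYN were lower in both dnFOS libraries than in the 4 other libraries, and YES1 was not.

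Changes between groups were fitted with edgeR's quasi-likelihood test on all 6 libraries, for 15395 genes that passed a filter on low counts, and a gene was called at a Benjamini-Hochberg adjusted p under 0.05. Of the 8 members 6 passed the filter, and LCK and BLK did not. CPM use library sizes scaled by TMM factors, which correct for differences in composition, and changes are log2 fold changes with their standard error (SE).

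SRC, the founding member of the family, lies on chromosome 20 from 37344685 to 37406050 on the plus strand (GRCh38). It gave 25 and 19 reads in EV, 28 and 13 reads in dnCEBP, and 2 and 2 reads in dnFOS. As levels these were 1.05 and 0.870 CPM in EV, 1.04 and 0.628 CPM in dnCEBP, and 0.130 and 0.193 CPM in dnFOS. Both dnFOS libraries were below all other libraries, and the EV and dnCEBP libraries overlapped. SRC fell in dnFOS against EV, where its fitted change was -2.57 ± 0.80 in log2 (SE; adjusted p = 0.0277 by edgeR). Read as summed counts per scaled library size, the 4 reads of dnFOS against 44 reads of EV gave a 6.19-fold lower level, with an exact 95% interval of 2.25 to 23.7 that covers counting error only. In bulk RNA, fewer cells that make a transcript and less of it per cell cannot be told apart. The study named SRC from these same libraries, so its direction here is not independent evidence.

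The call of SRC rested on few reads. In edgeR it was lost when EV replicate 1 (adjusted p = 0.11), dnFOS replicate 1 (0.157) or dnFOS replicate 2 (0.101) was left out, and limma-voom did not call it (0.0717). DESeq2 gave no adjusted p for it. The fitted change stayed between -2.83 and -2.28 in all of the alternatives that kept the gene. SRC passed the filter only through the EV and dnCEBP libraries, where it is higher.

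LYN, which couples receptors of myeloid and B cells to both activating and inhibitory signals, lies on chromosome 8 from 55879813 to 56014168 on the plus strand. Its level was 139.0 and 131.6 CPM in EV, 146.5 and 156.3 CPM in dnCEBP, and 115.0 and 109.8 CPM in dnFOS. The 3 groups did not overlap, with dnCEBP highest and dnFOS lowest. In dnFOS against EV the level of LYN fell by 0.27 in log2 units, with SE 0.09 and an adjusted p of 0.032 from edgeR. The change in dnCEBP against EV was 0.16 ± 0.08 (SE; edgeR, adjusted p = 0.458), which did not pass the threshold, with a 95% interval of -0.01 to 0.33. The call against EV was lost when EV replicate 1 (edgeR adjusted p = 0.267), EV replicate 2 (0.0647) or dnFOS replicate 2 (0.16) was left out, and with library totals alone (0.154).

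FGR, a kinase of granulocytes and monocytes that acts downstream of integrins and Fc receptors, lies on chromosome 1 from 27612064 to 27635277 on the minus strand. Its level was 4.41 and 4.49 CPM in EV, 4.96 and 4.92 CPM in dnCEBP, and 2.995 and 2.901 CPM in dnFOS. The groups were again separate and in the order seen for LYN. Against EV the change in dnFOS was -0.59 ± 0.26 (SE; edgeR, adjusted p = 0.129), which was not called, with a 95% interval of -1.12 to -0.06. In dnCEBP it was 0.15 ± 0.23 (SE; edgeR, adjusted p = 0.856).

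FYN, a kinase of lymphoid and neural cells among many others, lies on chromosome 6 from 111660332 to 111873452 on the minus strand. It was at 12.5 and 13.4 CPM in EV, 12.9 and 12.3 CPM in dnCEBP, and 9.96 and 11.2 CPM in dnFOS. Both dnFOS libraries were the lowest, but the change against EV of -0.30 ± 0.17 (SE; edgeR, adjusted p = 0.251) was not called, and its 95% interval ran from -0.64 to 0.04. In dnCEBP it was -0.04 ± 0.16 (SE; edgeR, adjusted p = 0.958).

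YES1, the closest relative of SRC, lies on chromosome 18 from 721588 to 812546 on the minus strand. Its level was 119.6 and 120.8 CPM in EV, 121.0 and 135.6 CPM in dnCEBP, and 127.5 and 139.1 CPM in dnFOS. YES1 was the 1 tested member whose fitted change in dnFOS was above 0, at 0.15 ± 0.09 (SE; edgeR, adjusted p = 0.278), and it was not called. Its call depended on the scaling and its sign on the GC correction: with library totals alone the change was 0.25 and called (adjusted p = 0.0431), and after removal of a smooth GC and length trend it was -0.11 (adjusted p = 0.352). YES1 has the lowest GC content of the members, 38.5%, and CSK the highest, 61.1%. The processed pseudogene YES1P1, which could share reads with YES1, had 16 to 50 reads in the libraries.

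CSK, the kinase that phosphorylates the inhibitory tail of the others, lies on chromosome 15 from 74782057 to 74803198 on the plus strand. It was at 68.9 and 63.7 CPM in EV, 69.4 and 62.8 CPM in dnCEBP, and 57.3 and 51.0 CPM in dnFOS. EV and dnCEBP overlapped in full, and both dnFOS libraries were lower. In dnFOS against EV the level of CSK fell by 0.29 in log2 units, with SE 0.10 and an adjusted p of 0.043 from edgeR, and in dnCEBP its change was -0.003 ± 0.094 (SE; edgeR, adjusted p = 0.993), with a 95% interval of -0.20 to 0.19. After removal of the smooth GC and length trend, the change of CSK in dnFOS was -0.07 (edgeR adjusted p = 0.626). The call was also lost with library totals alone (adjusted p = 0.192), by DESeq2 (0.0647) and limma-voom (0.0754), and without EV replicate 1 (0.327), EV replicate 2 (0.0647) or dnFOS replicate 2 (0.312).

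LCK, on chromosome 1 from 32251239 to 32286165 on the plus strand, gave 14 and 5 reads in EV, 5 and 4 reads in dnCEBP, and 4 and 3 reads in dnFOS. These counts are at or near the limit of detection and were not tested. BLK, on chromosome 8 from 11486894 to 11564604 on the plus strand, gave 0 reads throughout.

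In dnCEBP against EV, 0 of the 6 tested members were called, against 1.07% of all tested genes, or 165 of 15395. At an unadjusted p under 0.05 edgeR gave 1835 genes in this comparison, none of them a member, and DESeq2 and limma-voom called 0 members as well. The libraries of both groups did not overlap for 3 of the 6, LYN, FGR and YES1, against 42.8% of all tested genes. The fitted changes of the members ranged from -0.19 for SRC to 0.16 for LYN.

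In dnFOS against EV, 3 of the 6 were called, SRC, LYN and CSK, all of them lower. SRC had passed the filter only through the groups where it is higher, which favours a call in this direction. In that comparison 15% of all tested genes were called, made up of 7.24% of all tested genes as higher and 7.76% as lower in dnFOS. The libraries did not overlap for 6 of the 6 members and for 56.7% of all genes. The median change of all tested genes was 0.004. The 3 called members changed by very different amounts, SRC by -2.57 and LYN and CSK by -0.27 and -0.29. The 2 comparisons with EV share their control libraries, so the values of each member are set side by side and not correlated.

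**Figure D2:**
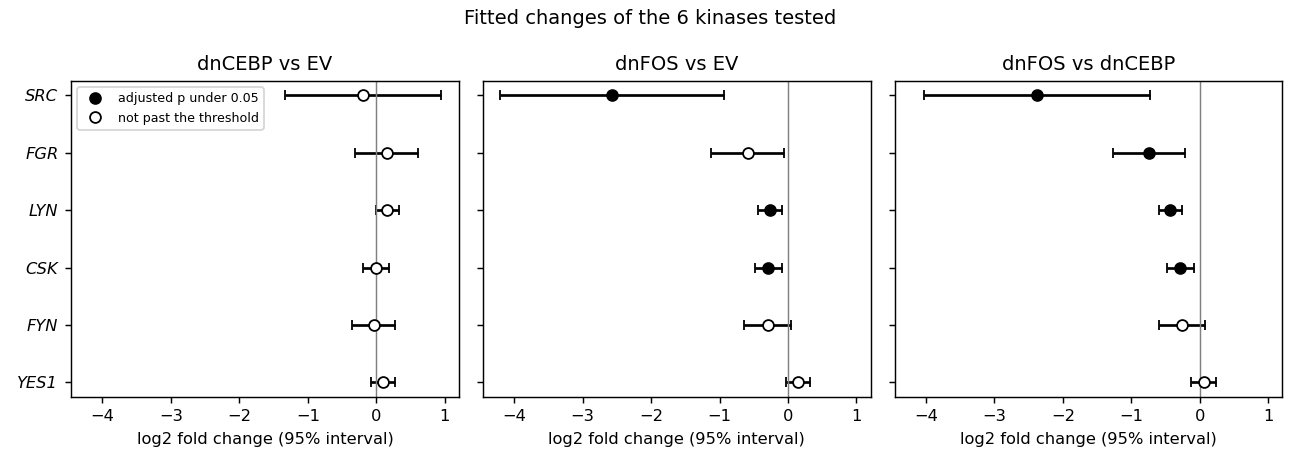
Log2 fold change (horizontal axes, points) with its 95% interval (bars) of the 6 tested members in the 3 comparisons; filled points passed an edgeR adjusted p of 0.05. In dnCEBP against EV no point is filled and all intervals cross 0, and in the other panels SRC lies far to the left, at -2.57 and -2.38, with the widest intervals.

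The direct comparison of the peptides asked whether their effects on the kinases differ. In dnFOS against dnCEBP, 4 of the 6 tested members were called, and all 4 were lower in dnFOS, with the same limit of the filter for SRC. Over all tested genes 14.7% were called here, 6.83% as higher and 7.84% as lower, and the median change was 0.024. LYN fell by 0.43 (SE 0.09, edgeR adjusted p = 0.000724), FGR by 0.74 (SE 0.26, adjusted p = 0.0489), SRC by 2.38 (SE 0.81, adjusted p = 0.0446) and CSK by 0.29 (SE 0.10, adjusted p = 0.0456). FYN changed by -0.26 ± 0.17 (SE; edgeR, adjusted p = 0.334) and YES1 by 0.05 ± 0.09 (SE; edgeR, adjusted p = 0.745), with 95% intervals of -0.60 to 0.08 and -0.12 to 0.23. The libraries of these groups did not overlap for 5 of the 6, with YES1 the exception, and for 54.5% of all genes.

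The call of LYN between the peptides was that kept most often. Apart from the replicate block, it was called in 14 of 14 alternatives, which included leaving out each library in turn, other scalings, DESeq2 and limma-voom, with adjusted p between 1.43e-05 and 0.0148. FGR kept its call in 3 of 14 and CSK in 6 of 14, so their adjusted p, close to the threshold, moved across it with most choices. SRC lost its call without dnCEBP replicate 1 (edgeR adjusted p = 0.244), dnFOS replicate 1 (0.218) or dnFOS replicate 2 (0.126), with library totals alone (0.0512) and with limma-voom (0.105). FGR lost its call without any of the 6 libraries in turn (0.0505 to 0.188), and CSK without 5 of them (0.0521 to 0.313), all but dnFOS replicate 1.

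The make-up of family RNA was compared as the share of each kinase in the summed RPKM of the 7 kinases, which is free of the scaling between libraries. The sum itself was 48.7 ± 0.7 RPKM in EV (SD, n = 2), 52.9 ± 3.1 RPKM in dnCEBP and 46.7 ± 1.1 RPKM in dnFOS. YES1 held 47.6% and 49.1% of it in the EV libraries, 46.7% and 48.3% in the dnCEBP libraries, and 54.5% and 57.4% in the dnFOS libraries. LYN held 45.7% and 44.1% of it in the EV libraries, 46.6% and 45.9% in the dnCEBP libraries, and 40.5% and 37.4% in the dnFOS libraries. The dnFOS libraries thus had the highest shares of YES1 and the lowest of LYN. This separation was also there with the lengths of coding transcripts, by which YES1 held 30.7% and 32.9% in dnFOS and 24.6% to 26.1% in the other libraries.

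FGR made up 2.63 ± 0.07% of family RNA in EV and 1.82 ± 0.09% in dnFOS (SD, n = 2), and SRC 0.304 ± 0.036% and 0.0534 ± 0.0135%. No test was run on shares.

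**Figure D3:**
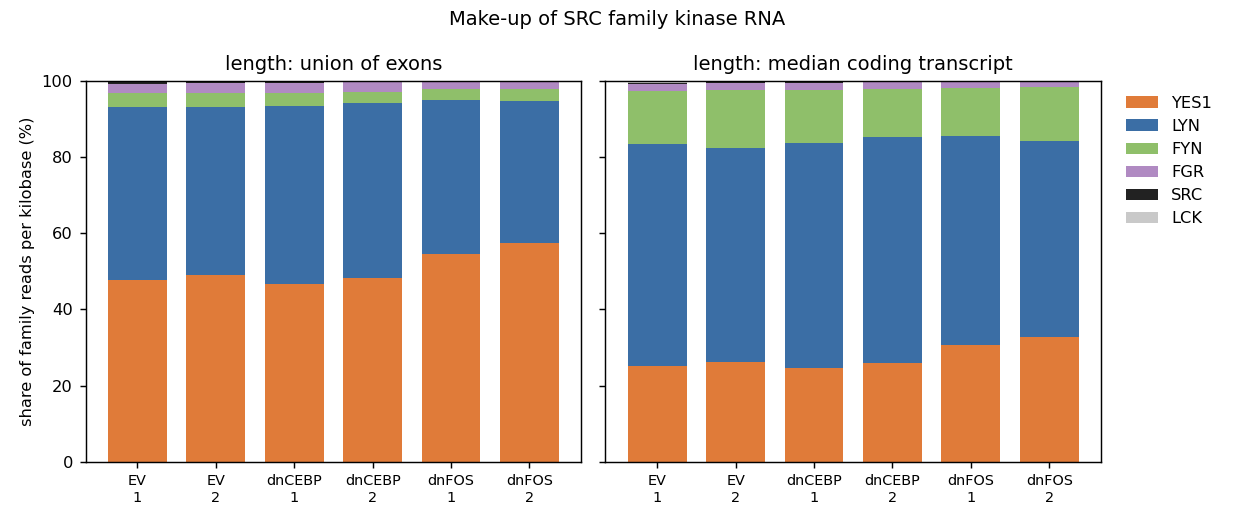
Share of each kinase in the reads per kilobase of the family (vertical axis, percent) in each of the 6 libraries, with exon unions as the length at left and median coding transcripts at right. YES1 (orange) is taller in the dnFOS libraries under both lengths, at 54.5% and 57.4% at left and 30.7% and 32.9% at right.

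The ratio of YES1 to LYN reads needs neither a length nor a scaling. The EV libraries gave 0.860 and 0.918, the dnCEBP libraries 0.826 and 0.868, and the dnFOS libraries 1.109 and 1.267, so that YES1 gave more reads than LYN only in the dnFOS libraries. The GC content of the transcripts differs between YES1 and LYN, 38.5% and 47.0%, and the GC-corrected changes in dnFOS against EV were -0.11 for YES1 and -0.31 for LYN. For YES1 to CSK the EV libraries gave 1.74 and 1.90, the dnCEBP libraries 1.74 and 2.16, and the dnFOS libraries 2.23 and 2.73. The ratio of LYN to CSK did not set dnFOS apart, with EV libraries at 2.02 and 2.07, dnCEBP libraries at 2.11 and 2.49 and dnFOS libraries at 2.01 and 2.16, although both dnCEBP libraries were above both EV libraries. These ratios carry no GC correction, and the corrected change of CSK in dnFOS against EV was -0.07, so after it CSK stood closer to 0 than YES1 and LYN.

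The family sum divided by CSK, as RPKM, compares the kinases with the gene of their inhibitor. The level of this ratio depends on the lengths used, here the exon unions. EV stood at 3.36 ± 0.14 (SD, n = 2), dnCEBP at 3.68 ± 0.47 and dnFOS at 3.96 ± 0.43. The dnCEBP libraries, at 3.34 and 4.01, overlapped with both other groups. The dnFOS libraries, at 3.66 and 4.26, were above the EV libraries at 3.27 and 3.46, and those of the peptides overlapped. The order of dnFOS and EV in this ratio rests on values without the GC correction, after which the changes of YES1, LYN and CSK were -0.11, -0.31 and -0.07.

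**Figure D4:**
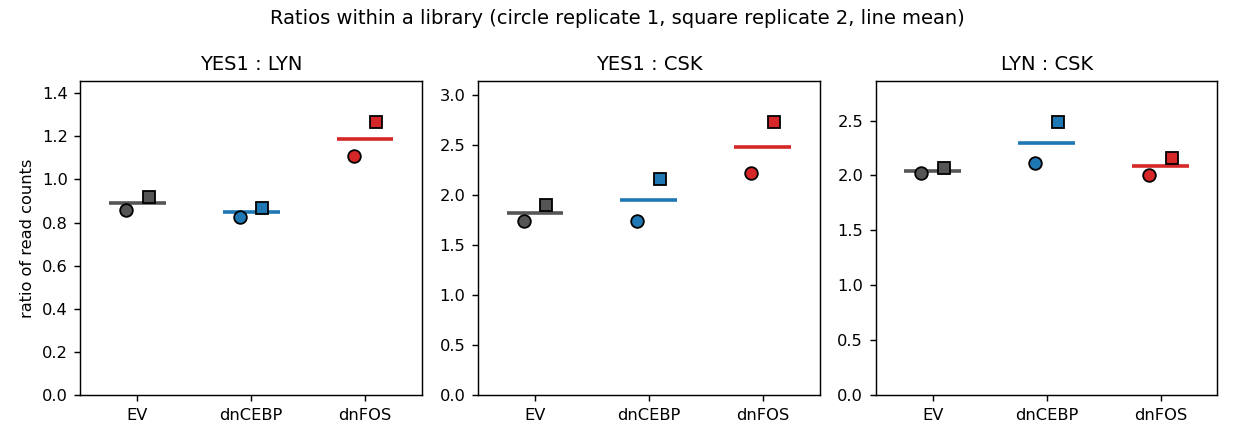
Ratios of read counts within a library (vertical axes, from 0) for YES1 to LYN, YES1 to CSK and LYN to CSK; points are libraries and lines are group means. YES1 to LYN is above 1 in both dnFOS libraries, at 1.109 and 1.267, and below 1 in the 4 others, while LYN to CSK in dnFOS overlaps with both other groups.

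Around the kinases, a list of 94 genes was examined, made of regulators, receptors and their adaptor chains, substrates and effectors, and other kinases of the same layout. Of these 84 passed the filter. In dnFOS against EV 21 of the 84 were called, 25% against 15% of all tested genes, with 19 lower and 2 higher. The median change of the 84 was -0.219, against 0.004 over all tested genes. In dnCEBP against EV 4 of the 84 were called, 4.76% against 1.07%, and in dnFOS against dnCEBP 29 of the 84, 34.5% against 14.7%. Many of these genes are made mainly in blood cells and were not chosen at random, so the shares describe this list alone.

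Of 21 tested regulators, 5 (23.8%) were called in dnFOS against EV, all lower, against 15% of all tested genes. PTPN6, the phosphatase SHP-1 that ITIM-bearing receptors recruit once LYN has phosphorylated them, fell by 0.36 on the log2 scale (edgeR adjusted p = 0.00536). PTPRC, the CD45 phosphatase that removes the inhibitory phosphate placed by CSK, fell by 0.33 (edgeR adjusted p = 0.00663), from 401.4 and 398.0 CPM in EV to 313.2 and 321.1 CPM in dnFOS. The others were the adaptors SLA2, DOK2 and DOK3, the last named after its values were seen, with changes of -0.36, -0.43 and -0.45. PAG1, a membrane anchor of CSK, changed by -0.003 (edgeR adjusted p = 0.987).

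Of 21 tested receptors and adaptor chains, 7 (33.3%) were called in dnFOS against EV, 6 of them lower, against 15% of all tested genes. CD36, a scavenger receptor that signals through LYN and FYN, was at 3.19 and 3.85 CPM in EV, 9.40 and 8.16 CPM in dnCEBP, and 1.11 and 0.580 CPM in dnFOS. It rose in dnCEBP by 1.32 (edgeR adjusted p = 0.00162) and fell in dnFOS by 1.98 (edgeR adjusted p = 0.000173). The ITAM chains TYROBP and FCER1G, which SRC family kinases phosphorylate, fell by 0.45 and 0.88 in dnFOS against EV. FCGR2A, an Fc receptor with an ITAM of its own, fell by 1.01, and it has near-identical paralogs between which reads could be split. CXCR4 and ITGB2 fell by 0.82 and 0.31, and ITGAM, the integrin alpha chain partnered with ITGB2, rose by 0.91 (edgeR adjusted p = 8.66e-05).

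Of 39 tested substrates and effectors, 9 (23.1%) were called in dnFOS against EV, 8 of them lower, against 15% of all tested genes. Among the 3 tested other kinases of the same layout, 0 were called there. The scaffold GAB2 fell by 0.91, from 36.8 and 35.5 CPM in EV to 20.5 and 17.8 CPM in dnFOS (edgeR adjusted p = 8.98e-06). The adhesion proteins PTK2 (FAK), PTK2B (PYK2) and NEDD9, which are known partners of SRC, fell by 1.23, 0.27 and 0.54. VAV1, SKAP1 and the phosphatase INPP5D fell by 0.42, 0.55 and 0.32, and the adaptor PIK3AP1 rose by 0.33. LAT, an adaptor of T cells and platelets, had 0 reads in both dnFOS libraries. Its EV mean of 0.601 CPM was 2.48 times the mean floor of 3 reads per library in dnFOS. That ratio leaves out the error of EV, whose libraries were at 0.378 and 0.824 CPM. Like SRC, LAT passed the filter only through the groups where it is higher, and it is 1 of the 19 genes counted as lower. SKAP1, SLA2 and LAT are known from T cells, and the T cell marker list was lowest in dnFOS, as given above, with CD3E and CD3G near 0. The platelet and megakaryocyte list, nearly all ITGA2B, was also lowest there, at 102 to 113 CPM against 183 to 195 CPM in EV. The part of either in these values was not tested.

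**Figure D5:**
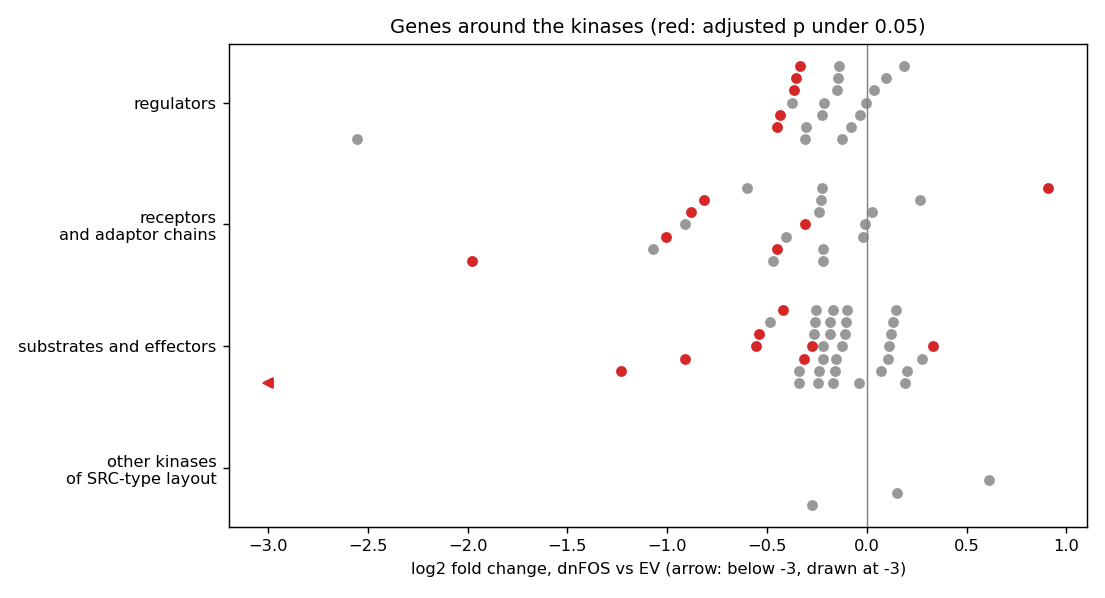
Log2 fold change in dnFOS against EV (horizontal axis) of the 84 tested genes around the kinases, grouped by role (rows, points spread for visibility); red marks an edgeR adjusted p under 0.05 and the arrow a value below -3 (LAT, at 0 reads in dnFOS). Of the red points 19 lie left of 0 and 2 right of it.

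In dnCEBP against EV, the 4 called genes of the list were CD36, higher, and CXCR4, CSF3R and PRAM1, lower, with CSF3R and PRAM1 named after their values were seen. CXCR4, the receptor of CXCL12, fell by 0.57 (edgeR adjusted p = 0.00926), and CSF3R, the G-CSF receptor that signals through LYN among other kinases, fell by 0.50 (edgeR adjusted p = 0.00421). PRAM1 fell by 1.62 (edgeR adjusted p = 0.0488). When dnCEBP replicate 2 was left out the list had 1 called gene in this comparison, and without dnFOS replicate 1 and dnFOS replicate 2 it had 7 and 8. In dnFOS against EV leaving out EV replicate 1 gave 12 called genes and leaving out dnFOS replicate 2 gave 13, and in dnFOS against dnCEBP there were 17 without dnCEBP replicate 1.

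The genes whose levels over the 6 libraries were most like those of the 3 called members with the smallest adjusted p were named. FGR, also called between the peptides, was left out by this limit. The genes are a description, since these points share libraries and depth. For LYN these were PRKCB, RPLP0P6 and RAB37 (Pearson r of log2 CPM of 0.9997, 0.9995 and 0.999), and 752 of 12753 genes had an r over 0.9. For SRC they were PLTP, ESS2 and TYROBP (0.9963, 0.9961 and 0.9958), with 618 genes over 0.9. For CSK they were CHCHD2, RGS12 and TMED1 (0.9969, 0.9962 and 0.9959), with 683 genes over 0.9.

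The nearest tested genes on the chromosome did not all share the direction of SRC, LYN and CSK. On the lower side of SRC, at a gap of 27425 bases, MANBAL fell in dnFOS against EV by 0.88 (SE 0.29, edgeR adjusted p = 0.0372). BLCAP, on the higher side, changed by 0.11 (edgeR adjusted p = 0.718). Next to LYN, TGS1 changed by 0.21 and AC046176.1 by 0.65 (edgeR adjusted p = 0.151 and 0.257), and next to CSK, CYP1A1 changed by -0.37 and ULK3 by -0.23 (0.713 and 0.306), none of them called.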

How the data were processed

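Total RNA of sorted KO52 cells was sequenced after depletion of ribosomal RNA. The authors deposited 1 table of raw read counts per gene for each library. The submitters' processing notes name Trimmomatic, HISAT2 and featureCounts of Subread with build hg38; versions and the strand setting are not given in the sources used here, so reads of antisense genes may be included. Gene identifiers were matched to GENCODE 29, 58394 of 60612, which gave symbols, coordinates and lengths. Reads from closely related genes could be split or lost in mapping.

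Counts of all 6 libraries were fitted in R 4.3.3 with edgeR 4.0.16 (filterByExpr with a minimum count of 10, TMM, robust glmQLFit, glmQLFTest, 3 residual degrees of freedom), and p-values were two-sided and Benjamini-Hochberg adjusted over 15395 genes. Intervals of changes are at 95%. DESeq2 1.42.0, limma 3.58.1 (voom), other scalings and filters, a GC and length correction, fits of only the groups compared, a replicate block and leaving out each library were alternatives. The fit was tested on simulated data. The shortfall in depth of dnFOS widens its errors, most of all for SRC and LCK.

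The members and the gene lists were chosen with earlier results of these data known. All members were named in every comparison. By rule, up to 20 called genes of the list around the kinases were named. Those with the smallest adjusted p in dnFOS against EV came first, then in dnCEBP against EV. DOK3, CSF3R and PRAM1 were named beyond this rule after their values were seen. PAG1, called in no comparison, was also named outside it. For up to 3 called members, the 3 genes of highest Pearson r over the libraries and the nearest tested genes were named. Replicates of a group differed by more than sampling noise.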

Additional observations from a re-analysis of the deposited data

Results flagged for a closer look

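LYN and FGR were higher in both dnCEBP libraries and lower in both dnFOS libraries than in either EV library. A call in dnFOS against dnCEBP was part of the rule that flagged these genes, so that call is no further check of the pattern. In that comparison the log2 fold change of LYN was -0.43 (edgeR adjusted p = 0.000724) and that of FGR was -0.74 (edgeR adjusted p = 0.0489). The share of all tested genes with the same order of the groups was not computed. For neither gene did dnCEBP against EV pass the threshold, with adjusted p of 0.458 and 0.856, and FGR did not pass it in dnFOS against EV either (edgeR adjusted p = 0.129). The FGR call between the peptides was lost in 11 of 14 alternatives. With 2 libraries per group, single libraries could not be examined as outliers.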

How the results depend on the processing

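Without the filter on low counts or with a mean of at least 1 CPM, with median-of-ratios scaling and in fits of only the groups compared, 2 to 3 members were called in dnFOS against EV and 3 to 4 in dnFOS against dnCEBP. DESeq2 and limma-voom each called 1 member in dnFOS against EV and 1 in dnFOS against dnCEBP, where library totals alone also gave 1. Leaving out 1 library gave 0 to 3 called members in dnFOS against EV and 1 to 2 in dnFOS against dnCEBP. In the list around the kinases, leaving out 1 library gave 1 to 8 called genes in dnCEBP against EV, 12 to 24 in dnFOS against EV and 17 to 28 in dnFOS against dnCEBP, and the GC and length correction gave 7 in dnCEBP against EV. Library totals alone moved the median of all genes to 0.102 in dnFOS against EV and 0.145 in dnFOS against dnCEBP, which bears on LYN, CSK and YES1. The causes of the other shifts were not tested. Over all genes in dnCEBP against EV, 165 calls became 255 without a filter, 257 with the GC correction and 297 in fits of only the compared groups, 127 with library totals alone, and between 33 (without dnCEBP replicate 2) and 314 (without dnFOS replicate 2) when 1 library was left out.

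Replicate numbers are shared by the groups, but no source says that a number marks a batch, and the deviations of same-numbered libraries correlated by 0.0174 to 0.0879 over genes. With the replicate block, 0, 3 and 4 members were called in dnCEBP against EV, dnFOS against EV and dnFOS against dnCEBP, as without it, and no member's call changed. The block gave 11 and 32 called genes of the list in dnCEBP against EV and dnFOS against EV, and 488 genes over all in dnCEBP against EV.

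Reversed signs were all of small changes that were not called. In dnCEBP against EV, CSK was 0.008511 without a filter, 0.002039 with median-of-ratios scaling, 0.002 by DESeq2, 0.1521 with the GC correction and -0.07709 to 0.06631 when 1 library was left out. FYN, SRC and YES1 were -0.08298 to 0.002675, -0.6089 to 0.1082 and 0.009196 to 0.1744 when 1 library was left out. With the GC correction YES1 was -0.001848 in dnCEBP against EV, -0.1112 in dnFOS against EV and -0.1093 in dnFOS against dnCEBP, where it was -0.02624 to 0.139 when 1 library was left out.

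With median coding transcript lengths, the shares in EV, dnCEBP and dnFOS were 57.3%, 59.3% and 53.2% for LYN, 25.7%, 25.3% and 31.8% for YES1, 14.6%, 13.2% and 13.3% for FYN, and 1.84%, 1.89% and 1.36% for FGR; SRC was 0.216% in EV and LCK 0.171% in dnCEBP and 0.300% in dnFOS. The depth of dnFOS limits SRC, LCK and LAT, for which a few reads decide the value.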
